A study of Homo sapiens with 6 samples.

Results

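The ERM proteins and the structural proteins of the intestinal brush border were followed as 10 genes, EZR, MSN, RDX, VIL1, PLS1, ESPN, CDHR2, CDHR5, MYO1A and USH1C, of 58302 genes counted in each of 6 RNA-seq libraries. The members were selected on their roles with their levels and fold changes in these same libraries already known, so that every value of theirs in the comparison is a description. The libraries were labelled as MDA-MB-231, an established human breast cancer line known as mesenchymal, a label that the marker genes only partly bore out. Of these, 3 expressed a control shRNA and 3 expressed Smyca shRNA #1, a short hairpin against Smyca, a long non-coding RNA of the MIR23AHG gene. Both groups thus carried a hairpin, the knockdown was represented by a single hairpin sequence, and the comparison asked how the transcriptome differed when Smyca was depleted.

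Ezrin, moesin and radixin, together the ERM proteins, bind membrane proteins and phosphoinositides through their amino-terminal FERM domain and actin filaments through their carboxy terminus. They are opened by phosphorylation and hold the actin cortex to the plasma membrane in microvilli, ruffles and filopodia, with ezrin prevailing in epithelia and moesin in leukocytes and many mesenchymal cells. In the brush border of enterocytes, villin, plastin 1 and espin bundle the actin core of each microvillus, the cadherins CDHR2 and CDHR5 join the tips of neighbouring microvilli, the scaffold harmonin (USH1C) binds the cytoplasmic tails of these cadherins, and myosin 1a tethers the membrane to the core.

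RefSeq promoter windows of GRCh38.p14, from 250 bases before to 50 bases after a transcription start, were matched for 7 of the 10 members and gave 13 windows; VIL1, ESPN and CDHR5 had no entry. The 4 windows below are shown because they cover the most abundant and least abundant members by length (EZR and MSN, and MYO1A) and the cadherin whose level varied widely (CDHR2). The window of EZR is chr6:158818186-158818485 on the minus strand, that of MSN is chrX:65667404-65667703 on the plus strand, that of CDHR2 is chr5:176549092-176549391 on the plus strand, and that of MYO1A is chr12:57051149-57051448 on the minus strand. Capitals mark, on either strand, GGGCGG (a GC box) in EZR, CACGTG (an E-box) in MSN, CAGAC (a short Smad-binding box) in CDHR2 and TTTAT (a CDX core) in MYO1A. Each is written 5′ to 3′ on the strand of its gene.
EZR: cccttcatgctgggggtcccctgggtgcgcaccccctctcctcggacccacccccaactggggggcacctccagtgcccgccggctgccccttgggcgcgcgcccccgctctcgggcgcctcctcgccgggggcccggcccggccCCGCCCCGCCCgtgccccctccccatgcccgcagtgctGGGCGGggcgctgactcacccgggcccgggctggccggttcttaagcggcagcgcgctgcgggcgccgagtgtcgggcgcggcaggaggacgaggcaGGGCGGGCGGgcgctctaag
MSN: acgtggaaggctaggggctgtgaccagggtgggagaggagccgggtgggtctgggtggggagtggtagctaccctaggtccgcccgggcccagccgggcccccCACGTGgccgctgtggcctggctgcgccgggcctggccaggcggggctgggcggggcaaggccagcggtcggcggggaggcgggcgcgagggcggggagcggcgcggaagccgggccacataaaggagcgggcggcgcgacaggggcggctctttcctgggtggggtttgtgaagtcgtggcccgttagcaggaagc
CDHR2: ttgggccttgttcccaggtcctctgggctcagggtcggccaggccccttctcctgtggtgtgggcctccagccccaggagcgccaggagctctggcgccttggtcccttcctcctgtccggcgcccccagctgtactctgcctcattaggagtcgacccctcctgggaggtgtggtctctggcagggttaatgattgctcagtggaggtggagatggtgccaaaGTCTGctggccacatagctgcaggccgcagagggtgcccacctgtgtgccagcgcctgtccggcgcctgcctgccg
MYO1A: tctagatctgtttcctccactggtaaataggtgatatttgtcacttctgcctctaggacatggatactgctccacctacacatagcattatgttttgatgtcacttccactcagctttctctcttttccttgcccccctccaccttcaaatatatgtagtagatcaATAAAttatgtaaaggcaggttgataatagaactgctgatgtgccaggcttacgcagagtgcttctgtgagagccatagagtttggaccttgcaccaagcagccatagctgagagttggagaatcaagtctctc

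The windows differed strongly in base composition. G and C made up 80.0% of the bases of the EZR window, 75.0% of the MSN window, 66.3% of the CDHR2 window and 43.7% of the MYO1A window, and the median over all 35116 windows was 58.7%. A GC box was found in 45.0% of all windows, and EZR held 5 matches, some of them overlapping. The E-box was found in 7.26% of all windows and in 1 of the 13 member windows, at -147 from the MSN start shown. The MSN and CDHR2 windows shown are at a second start inside the gene, and the window at the 5′ end of MSN held no E-box. The EZR window shown also lies inside its gene as placed by GENCODE v44 (chr6:158765741-158819368). TTTAT was found in 34.9% of all windows and in 5 member windows. The short box CAGAC occurred in 45.3% of all windows and in 5 member windows, at -26 from the start in the CDHR2 window shown, and the Smad-binding palindrome GTCTAGAC occurred in 0.202% of all windows and in 0 of the 13 member windows. These matches describe the letters of the windows.

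The libraries held 14999307 to 16501085 counts. MIR23AHG, the targeted gene, was at 25.0, 19.5 and 22.0 CPM (counts per 1e6 counts, normalized) in the control libraries and at 10.5, 6.97 and 5.61 CPM in the Smyca knockdown libraries, without overlap, but the difference did not reach an adjusted p of 0.05 (log2 fold change of control over knockdown 1.53, SE 0.26, edgeR adjusted p = 0.111). Control replicate 3 stood apart from the other controls and lay with the knockdown libraries on the first principal component, which carried 45.0% of the variance (-60.6, -40.6 and 13.1 in the controls, 25.6, 39.2 and 23.3 in the knockdowns). On the second component, which carried 23.8%, it lay apart from the knockdowns too (3.83, 10.8 and -52.1 in the controls, 24.7, 26.5 and -13.7 in the knockdowns). In 5 libraries the deposited FPKM followed the counts, while in control replicate 2 it followed the counts within 1% for 1.61% of the genes. The reads recovered from that FPKM column correlated across 13499 genes at r = 0.995 with the counts of control replicate 3 and at r = 0.956 with the counts of control replicate 2 itself, and the highest r between count columns of different libraries was 0.989. The library behind each of the 2 columns of control replicate 2 cannot be told apart from the files, so each member is given below with both.

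The markers of the cell line label were mixed. Of 10 mesenchymal markers listed for it, 9 passed the filter on low counts and 0 were at or below 3 counts in every library. Of 12 luminal breast markers 9 passed it too, so passing this filter does not tell these cell types apart. MDA-MB-231 is known for lacking E-cadherin, and here its gene CDH1 went against the label with 1116 to 4864 counts per library. The epithelial keratin KRT8 had 66358 to 112201 counts. Among genes chosen here after their values were seen, the epithelial adhesion molecule EPCAM had 3826 to 5248 counts, the liver and gut transcription factor HNF4A had 1021 to 3064, and the intestinal factor CDX2 had 95 to 168. Vimentin (VIM) was present at 1122 to 4942 counts, while SPARC, a matrix protein of mesenchymal cells, had at most 11 counts. The receptors of luminal breast cells were nearly absent, with ESR1 at up to 3 counts and PGR at 0, as were the gut factor CDX1 at 0 and the hepatocyte product ALB at up to 4. The cells are therefore called by their label only. In bulk RNA, fewer cells of a type and less RNA per cell cannot be told apart.

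All 10 members were detected in all 6 libraries and passed the filter on low counts. Levels were set per length with the gene lengths behind the deposited FPKM columns, as RPKM (CPM per kilobase of gene length). MSN had the highest mean at 468 ± 132 RPKM (SD, n = 6 libraries) and was exceeded by 205 of 29602 genes with a length. EZR followed at 298 ± 48.7, VIL1, the villin gene, at 171 ± 45.4 and USH1C at 99.1 ± 38.9. MSN exceeded EZR, EZR exceeded VIL1 and VIL1 exceeded USH1C within each of the 6 libraries, although over all libraries the ranges of MSN and EZR, and of VIL1 and USH1C, overlapped. PLS1 (43.0 ± 9.65), ESPN (39.2 ± 8.62), RDX (33.9 ± 2.73) and CDHR2 (28.6 ± 17.2) formed a middle group in which each neighbour in the order overlapped the next. CDHR5 lay at 4.63 ± 1.66 and MYO1A at 0.957 ± 0.695, each without overlap with the member above it. The place of MSN rests on its length, which was 1280 bases behind the FPKM and 11407 bases as the union of its exons in GENCODE v44. With exon-union lengths, EZR led at 228 ± 37.2 RPKM, VIL1 and MSN followed at 55.2 ± 14.7 and 52.5 ± 14.8, and MYO1A was again last at 0.326 ± 0.237.

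**Figure D1:**
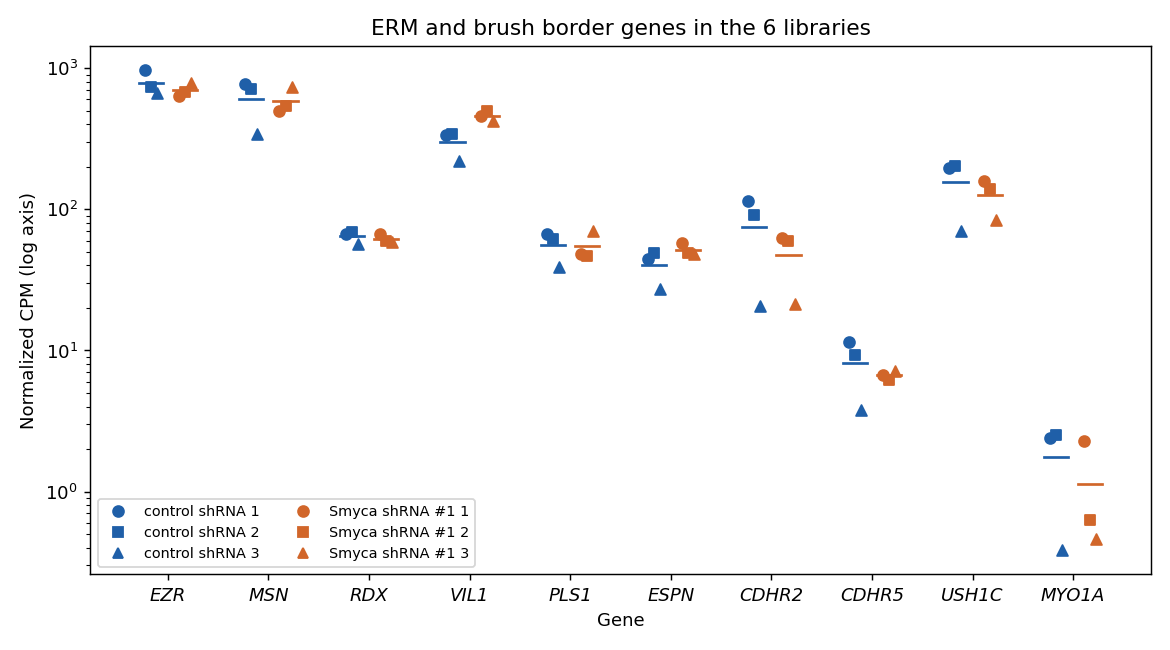
Normalized CPM (log axis) of the 10 members in each library. Circles, squares and triangles are replicates 1, 2 and 3, blue is control shRNA, orange is Smyca shRNA #1 and bars are group means; VIL1 is the member whose groups do not overlap, and the blue triangle (control replicate 3) lies below the other controls for every member.

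EZR (chr6:158765741-158819368, minus strand, GRCh38), the ERM protein of epithelial microvilli, was at 971, 740.1 and 663 CPM in control replicates 1 to 3 and at 639.8, 683 and 789 CPM in Smyca knockdown replicates 1 to 3. Control replicate 1 was highest, and the other 5 libraries ran into each other across the groups. Control over Smyca knockdown gave a log2 fold change of 0.17 (SE 0.18, 95% interval -0.24 to 0.58), which was -0.0011 without control replicate 1. EZR spanned 1.52 times from its lowest to its highest library. With the FPKM column, control replicate 2 was at 655 CPM.

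MSN (chrX:65588377-65741931, plus strand), the ERM protein also listed here among the mesenchymal markers, was at 767, 714 and 341 CPM in the controls and at 494, 538 and 737 CPM in the knockdowns. Control replicate 3 was far below all other libraries, and the groups overlapped. Between the groups it had a log2 fold change of 0.04 (SE 0.30, 95% interval -0.64 to 0.73), and this value turned to -0.33 when control replicate 2 was taken from its FPKM column, where MSN was at 318 CPM. This sign also turned when control replicate 1 (-0.15), control replicate 2 (-0.09), knockdown replicate 1 (-0.08) or knockdown replicate 2 (-0.02) was left out.

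RDX (chr11:109864295-110296712, minus strand), encoding radixin, was the steadiest member. It was at 67.0, 68.6 and 57.1 CPM in the controls and at 67.2, 59.8 and 58.8 CPM in the knockdowns, so that the highest library exceeded the lowest by 1.20 times. The groups overlapped, and the log2 fold change was 0.05 (SE 0.14, 95% interval -0.27 to 0.38), which was -0.00033 without control replicate 2 and -0.071 with its FPKM column, where RDX was at 54.2 CPM. The gene overlaps ZC3H12C on the other strand, which had 121 to 270 counts. Within the 3 ERM genes, radixin made up 3.43% to 5.47% of the summed RPKM in the 6 libraries with the lengths behind the FPKM and 2.12% to 3.21% with exon-union lengths. Moesin made up 47.5% to 62.7% with the lengths behind the FPKM and 12.5% to 21.2% with exon-union lengths, in each case with its lowest share in control replicate 3.

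VIL1 (chr2:218419121-218453295, plus strand) encodes villin, which bundles, caps and severs actin filaments and is a classical marker of gut and kidney epithelium. It was at 337, 343 and 220.5 CPM in the controls and at 457, 501 and 422 CPM in the knockdowns. Every knockdown library was above every control library, with means of 460.04 ± 39.3 against 300.05 ± 69.0 CPM (SD, n = 3 each). The log2 fold change of control over knockdown was -0.62 (SE 0.19, 95% interval -1.06 to -0.17), that is, 1.53 times higher mean CPM in the knockdown. Over the other processing choices it ranged from -0.84 to -0.44. The value nearest to 0 was the one without control replicate 3, and the farthest was the one with the FPKM column of control replicate 2, in which VIL1 was at 221 CPM. USP37, on the other strand across VIL1, had 139 to 219 counts, far below those of VIL1.

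PLS1 (chr3:142596393-142713664, plus strand), encoding plastin 1 or fimbrin, was at 66.5, 61.6 and 39.1 CPM in the controls and at 47.9, 46.6 and 69.9 CPM in the knockdowns. Knockdown replicate 3 was highest, control replicate 3 was lowest, and the groups overlapped. Its log2 fold change was 0.02 (SE 0.24, 95% interval -0.52 to 0.57). This turned to -0.12 without control replicate 1, -0.06 without control replicate 2, -0.07 without knockdown replicate 1, -0.08 without knockdown replicate 2 and -0.20 with the FPKM column of control replicate 2, where PLS1 was at 38.5 CPM.

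ESPN (chr1:6424776-6461367, plus strand), encoding espin, a bundler that lengthens parallel actin bundles in microvilli and stereocilia, was at 44.7, 48.8 and 27.5 CPM in the controls and at 58.1, 49.0 and 48.2 CPM in the knockdowns. The lowest was control replicate 3, the highest was knockdown replicate 1, and control replicate 2 lay within the knockdown range. Control over knockdown was -0.36 on the log2 scale (SE 0.22, 95% interval -0.86 to 0.14), -0.15 without control replicate 3 and -0.58 with the FPKM column of control replicate 2, where ESPN was at 32.5 CPM. These values are uncertain, because reads may be shared with the pseudogene ESPNP, which had 107 to 243 counts, and with TNFRSF25 on the other strand, which had 592, 354 and 202 counts in the controls and 211, 182 and 177 in the knockdowns. The libraries were prepared with a strand-specific kit, but whether the counting used strand was not given in the sources used here.

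The share of villin among 6 actin bundlers (VIL1, PLS1, ESPN and the non-intestinal bundlers FSCN1, PLS3 and LCP1) was 11.7%, 12.2% and 14.8% of their summed RPKM in the controls and 20.2%, 19.8% and 15.4% in the knockdowns. These shares did not overlap between the groups, but control replicate 3 and knockdown replicate 3 differed by little. The ratio of VIL1 to PLS1 CPM was 5.07, 5.56 and 5.64 in the controls and 9.55, 10.7 and 6.04 in the knockdowns. The ratio of VIL1 to EZR CPM was 0.347, 0.463 and 0.333 against 0.715, 0.733 and 0.535. The share of FSCN1 in the same sum was 39.6%, 38.1% and 28.8% in the controls and 22.9%, 27.1% and 25.9% in the knockdowns, also without overlap. The sum holds both genes, so each share depends on the level of the other, and the CPM of FSCN1 itself overlapped between the groups. All of these values use the same VIL1 counts and are not independent of each other.

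**Figure D2:**
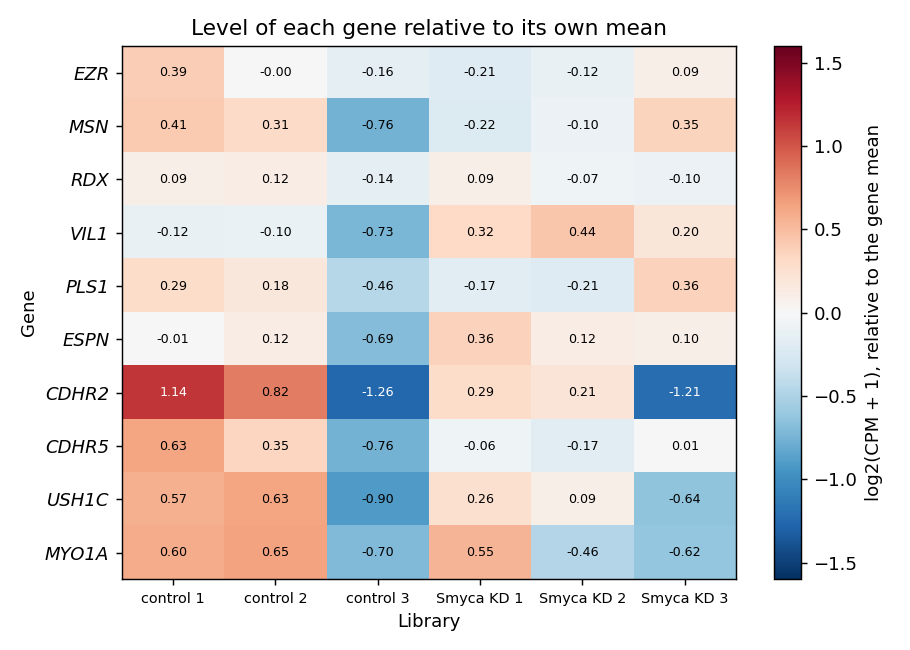
Level of each member in each library as log2(CPM + 1) minus the mean of that gene over the 6 libraries (red above, blue below the gene mean). Control replicate 3 is below the mean for every member, and knockdown replicate 3 is low for CDHR2, USH1C and MYO1A but not for EZR, MSN or PLS1.

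CDHR2 (chr5:176542511-176595974, plus strand), the protocadherin of the intermicrovillar adhesion complex, was at 114, 91.1 and 20.8 CPM in the controls and at 62.9, 59.2 and 21.5 CPM in the knockdowns. Replicate 3 of each group was about equally low, and the groups overlapped. The highest library exceeded the lowest by 5.47 times. Its log2 fold change was 0.65 (SE 0.58, 95% interval -0.67 to 1.98). It was 1.09 without control replicate 3, 0.23 without control replicate 1, 0.29 without knockdown replicate 3 and 0.08 with the FPKM column of control replicate 2, where CDHR2 was at 19.6 CPM. GPRIN1, on the other strand across the gene, had 535 to 956 counts.

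USH1C (chr11:17493895-17544416, minus strand), encoding the scaffold harmonin, was at 195, 204 and 69.7 CPM in the controls and at 158, 139.7 and 83.9 CPM in the knockdowns. As for CDHR2, replicate 3 of each group was lowest, and the groups overlapped. For harmonin the log2 fold change was 0.30 (SE 0.39, 95% interval -0.59 to 1.19). It was 0.64 without control replicate 3, 0.47 without knockdown replicate 1 and 0.06 to 0.11 without control replicate 1, control replicate 2 or knockdown replicate 3, and turned to -0.20 with the FPKM column of control replicate 2, where USH1C was at 71.9 CPM.

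CDHR5 (chr11:616577-626078, minus strand), the mucin-like cadherin that pairs with CDHR2, was at 11.5, 9.29 and 3.78 CPM in the controls and at 6.73, 6.21 and 7.13 CPM in the knockdowns. The controls enclosed all knockdown values, with control replicates 1 and 2 above and control replicate 3 below. The log2 fold change was 0.29 (SE 0.38, 95% interval -0.58 to 1.17), it was 0.63 without control replicate 3 and 0.19 without control replicate 2, and it turned to -0.12 with the FPKM column of control replicate 2 (3.36 CPM) and to -0.03 without control replicate 1.

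MYO1A (chr12:57028517-57051198, minus strand), the myosin that tethers the microvillar membrane, had 39, 41 and 6 counts in the controls and 36, 10 and 7 in the knockdowns, or 2.41, 2.52 and 0.384 CPM against 2.29, 0.634 and 0.462 CPM. Control replicates 1 and 2 and knockdown replicate 1 were alike and the other 3 libraries were low, so that the groups overlapped. The log2 fold change was 0.65 (SE 0.77, 95% interval -1.10 to 2.39), and it ranged from 0.27 without knockdown replicate 3 to 1.67 without knockdown replicate 1, moving by more than 1.5 times whichever library was left out. Its counts were few in every library, and with the FPKM column of control replicate 2 (0.231 CPM) the gene did not pass the filter on low counts.

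**Figure D3:**
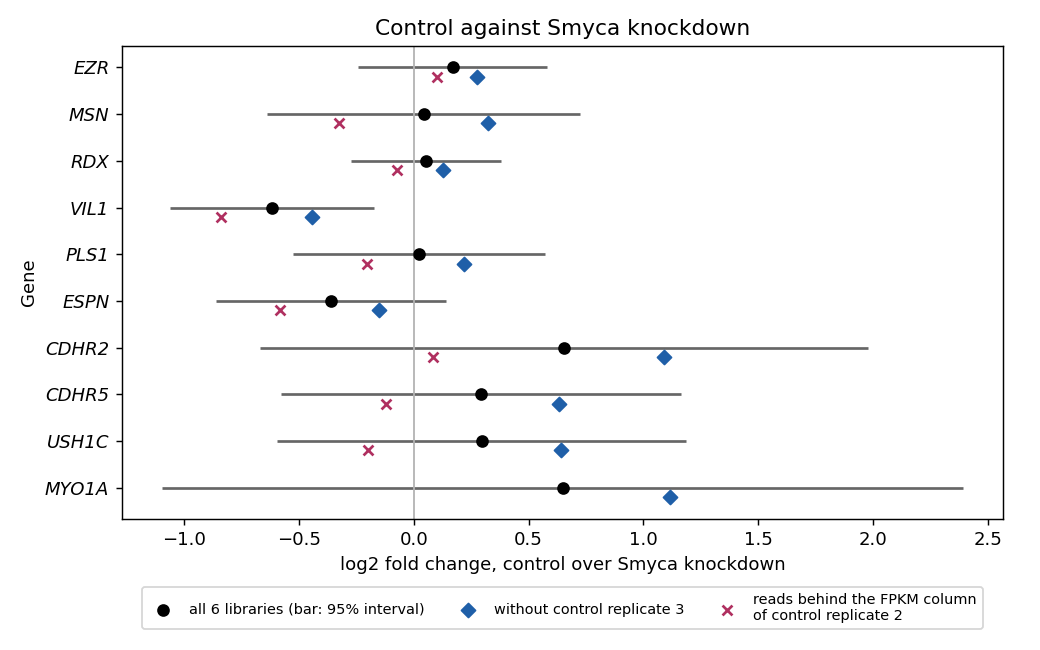
Log2 fold change of control over Smyca knockdown for the 10 members. Black points with bars are the estimates from all 6 libraries with their 95% intervals, blue diamonds leave out control replicate 3 and crosses take control replicate 2 from its FPKM column; only the interval of VIL1 lies wholly on 1 side of 0.

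A gene was called when the control/Smyca knockdown ratio was at least 1.5 or at most 0.66 and the adjusted p of edgeR's quasi-likelihood test (Benjamini-Hochberg over all 15075 genes tested) was under 0.05. By this rule 4 genes (0.0265%) were called, all higher in the controls, and 0 of the 10 members. At an unadjusted p under 0.05 there was 1 member, VIL1, beside 19.2% of all genes tested, and groups did not overlap for 1 member, again VIL1, beside 24.8% of all genes. DESeq2 called 0 members and 836 genes (5.55%). The number of genes called depended on single libraries: it was 1628 of 15449 (10.5%) without control replicate 3, 2 without control replicate 2 or without knockdown replicate 3, and 0 without any of the other 3 libraries, and 0 members were called in each case. By the ratio alone 3 members passed, VIL1, CDHR2 and MYO1A, beside 3193 of all genes tested (21.2%). The median log2 fold change was 0.11 over the members and 0.04 over all genes tested. As the members were chosen with this comparison known, nothing is read from these counts.

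Some members varied together across the 6 libraries. Over log2 levels, the Pearson correlation was 0.98 between CDHR2 and USH1C, 0.96 between MSN and PLS1, 0.90 between VIL1 and ESPN and 0.99 between RDX and MYO1A, while VIL1 and EZR were at -0.07. These describe 6 points that share their libraries and scaling. Among 14026 genes with a mean of at least 1 CPM, the patterns most like EZR were those of KMT2C (r = 0.994), PRKAA2 (0.991), UFSP2 (0.991), RBMX2 (0.987) and CDCP1 (0.987), and 217 genes had r over 0.9. The patterns most like the summed CPM of the 7 members other than ERM were those of GPR157 (r = 0.999), TTYH3 (0.996), EHF (0.993), GRK2 (0.987) and RBM47 (0.987), and 190 genes had r over 0.9.

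ERM partners and regulators, the membrane proteins and PDZ scaffolds that ERM proteins bind and the kinases and signalling genes that activate them, were tested for 15 of 16 genes, SDC2 being at 0 counts. By edgeR 0 passed in either direction, 2 were higher in the controls and 2 higher in the knockdowns at an unadjusted p under 0.05 (19.2% of all genes tested were under it in either direction), and the median log2 fold change was -0.03. The scaffold gene NHERF2 was at 173, 107 and 68.3 CPM in the controls and 51.2, 53.5 and 73.0 in the knockdowns, with control replicate 3 inside the knockdown range (log2 fold change 0.97, SE 0.31, edgeR adjusted p = 0.160, and 0.57 without control replicate 1). PODXL, which encodes the ezrin-bound sialomucin podocalyxin, was at 19.6, 22.4 and 25.0 CPM in the controls and 45.3, 37.4 and 28.2 in the knockdowns. The knockdown values lay above all controls (log2 fold change -0.73, SE 0.21, edgeR adjusted p = 0.136). ARHGDIA, the most abundant of the list per length, was at 524, 580.3 and 608 CPM in the controls and 555, 893 and 984 in the knockdowns (log2 fold change -0.51, SE 0.22, edgeR adjusted p = 0.249).

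Of 20 other genes of microvillus and brush border assembly, which include the remaining partners of the adhesion complex, the EPS8 family at microvillus tips, further myosins and epithelial transcription factors, all 20 were tested and 0 passed. At an unadjusted p under 0.05, 2 were higher in the controls and 1 in the knockdowns, and the median log2 fold change was 0.07. ELF3, an epithelial ETS factor, was at 69.6, 28.7 and 28.3 CPM in the controls and 15.5, 13.5 and 18.1 in the knockdowns, without overlap but with control replicate 1 far above the others (log2 fold change 1.43, SE 0.35, edgeR adjusted p = 0.122, and 0.86 without that library). ANKS4B, the scaffold that joins harmonin and myosin 7b to the adhesion complex, was scarce at 0.802, 3.82 and 0.384 CPM in the controls and 4.51, 3.86 and 0.858 in the knockdowns, with replicate 3 low in each group. The group means of MYO1C, the most abundant of the list per length, were 320.2 ± 62.6 and 335 ± 44.9 CPM (SD, n = 3 each).

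The hydrolases and transporters of the mature brush border were unevenly present. Of 20 listed genes, 18 had at least 1 count in some library, 10 had at most 3 counts in every library, SI and MEP1A had 0, and 7 could be tested, of which 0 passed, 0 were under an unadjusted p of 0.05, and the median log2 fold change was 0.77. The peptide transporter SLC15A1 was at 4.69, 3.38 and 0.768 CPM in the controls and 2.54, 1.46 and 0.726 in the knockdowns. GGT1, a membrane peptidase, was at 39.1, 39.8 and 10.6 CPM against 21.6, 18.7 and 10.1, again with replicate 3 low in each group, as for CDHR2 and USH1C. CDH17, the cadherin of liver and gut, was at 0.802, 2.22 and 0.704 CPM against 4.25, 3.61 and 0.924.

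The actin bundling genes of non-intestinal protrusions were tested for 11 of 12 genes, with 0 passed, 1 higher in the knockdowns at an unadjusted p under 0.05 and a median log2 fold change of -0.17. Fascin (FSCN1), the bundler of filopodia, was at 701, 657 and 263 CPM in the controls and 319, 420.03 and 436 in the knockdowns, and ENAH, which elongates actin filaments, was at 126, 129 and 113 against 149.8, 158 and 187 CPM. ENAH did not overlap between the groups (log2 fold change -0.43, SE 0.15, edgeR adjusted p = 0.176). The crosslinker ACTN4 was at 1669 ± 611 and 1980.3 ± 32.0 CPM, with control replicate 3 at 1004 CPM, and without that library its log2 fold change turned from -0.25 to 0.01, while it was -0.49 without control replicate 1.

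Markers of other cell types had the following values beside those of the members. The intestinal epithelium list was tested for 8 of 18 genes, with 0 passed, 2 higher in each group at an unadjusted p under 0.05 (beside 1575 higher in the controls and 1318 higher in the knockdowns of the 15075 genes tested) and a median log2 fold change of -0.14, and its summed level was 303 to 463 CPM in the controls and 352 to 508 in the knockdowns. In this list LGALS4 (1.05, 1.17 and 1.34 against 0.698, 0.570 and 0.330 CPM) and TSPAN8 (0.494, 1.42 and 0.704 against 3.24, 2.91 and 1.72 CPM) were scarce, and TFF3, a secreted peptide of goblet cells, was at 144, 113 and 95.4 against 168, 108 and 39.2 CPM. The hepatocyte list was tested for 3 of 16 genes with 0 passed, 0 under an unadjusted p of 0.05, 7 genes at or below 3 counts in every library, and a summed level of 35.2 to 57.0 against 30.2 to 80.3 CPM. Its tested genes CYP2E1, APOH and SERPINA1 had log2 fold changes of 0.83, -0.93 and -0.32. That of APOH was -0.46 without control replicate 1 and -1.64 without control replicate 3. That of SERPINA1 was 0.071 without knockdown replicate 1, -0.63 without knockdown replicate 3, -0.50 without control replicate 2 and -0.13 without control replicate 3.

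The luminal breast list was tested for 9 of 12 genes with 0 passed and 1 higher in the knockdowns at an unadjusted p under 0.05, KRT8, at 4715, 4775 and 4249 CPM against 5083, 6504 and 7408 (log2 fold change -0.47, SE 0.17, edgeR adjusted p = 0.201). Its summed level was 7165 to 8477 CPM in the controls and 7757 to 10585 in the knockdowns. CDH1 was at 300.1, 192 and 71.5 against 93.8, 77.6 and 172 CPM, overlapping. The mesenchymal list, which shares MSN with the members, was tested for 9 of 10 genes with 0 passed, 4 higher in the controls at an unadjusted p under 0.05 (beside 1575 of the 15075 genes tested), a median log2 fold change of 0.71 and a summed level of 702 to 1400 against 739 to 1129 CPM. VIM was at 305, 200.3 and 148 CPM in the controls and 71.2, 105 and 129.7 in the knockdowns, without overlap (log2 fold change 1.09, SE 0.30, edgeR adjusted p = 0.131), and TGFBI was at 80.4 ± 3.75 against 99.7 ± 15.9 CPM (SD, n = 3 each). The part of these genes, of control replicate 3 and of the replicates numbered 3 in the levels of the members was not tested.

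Over all genes of these lists other than the members, 0 of 80 tested were called by edgeR and 6 of 80 by DESeq2, beside 5.55% of all genes (among them VIM, NHERF2, AGR2 and ELF3, higher in the controls, and PODXL, higher in the knockdowns), and 13 of 82 were called without control replicate 3, beside 10.5% of all genes. AGR2, which encodes a secretory pathway chaperone, is named here for that reason only.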

How the data were processed

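RNA of MDA-MB-231 cells expressing control shRNA (3 libraries) or Smyca shRNA #1 (3 libraries), described as biological repeats, was sequenced after removal of ribosomal RNA. Per the labels and the study's methods, reads were aligned with TopHat2 2.0.12 to hg38. The authors deposited, per gene and library, a read count (used here) and an FPKM; the libraries were strand-specific, and the annotation release and strand setting of the counting were not given in the sources used here. Gene positions and exon-union lengths came from GENCODE v44 on GRCh38, promoters from RefSeq, and symbols matched 57532 of 58302 IDs.

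Counts were filtered with filterByExpr, scaled by TMM and tested with edgeR 4.0.16 (glmQLFit and glmQLFTest, R 4.3.3); the biological coefficient of variation was 25.2%. Log2 fold changes are control minus Smyca knockdown, the SE is the absolute log2 fold change divided by the square root of F, and intervals are 95%. Calls used the ratio and adjusted p given in the report, which are the study's thresholds. The study tested with DESeq and not with edgeR, so the numbers of genes called here are not those of the study. Normalized CPM used TMM library sizes, and log2 levels used a pseudocount of 1. Reads behind the FPKM of control replicate 2 were recovered from the gene lengths that the other libraries share (16759253 reads, with 100% of the values of 1 to 100 reads within 0.05 of a whole number). The edgeR step was tested on simulated data. Over all genes tested, libraries with the same number did not deviate together (correlations of 0.0536, 0.0938 and 0.0207), so the numbers were not used as pairs. For CDHR2 and USH1C, however, replicate 3 was lowest in each group, and the replicate block is given among the alternatives.

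Alternatives were RLE size factors, total counts, other filters on low counts, DESeq2 1.42.0, a replicate block, leaving out each library, the FPKM column of control replicate 2, unadjusted p-values and the ratio alone. Named genes were the members, MIR23AHG and, from each list, the genes called, the genes that differed most in each direction and the most abundant per length, with the 5 genes most alike in pattern to EZR and to the summed brush border members. The members and lists were chosen with earlier results of these data known. A few listed genes and a motif are not reported here.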

Additional observations from a re-analysis of the deposited data

How the results depend on the processing

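Of 128 values of the member fold changes under other processing, 110 kept their sign and stayed short of a call, 0 became calls and 18 turned their sign; the cause was not tested. MYO1A gave no value with the FPKM column of control replicate 2 or with at least 10 counts in every library. Genes called numbered 4, against 8 with total counts, 916 with no filter beyond 1 count, 836 with DESeq2 and 0 with the replicate block. They numbered 10 with the FPKM column of control replicate 2 and 0 to 1628 with a library left out. With the same ratio and an unadjusted p under 0.05 they numbered 1855, and by the ratio alone 3193, of 15075 genes tested. Members called numbered 0 of 10, against 1 with the same ratio and an unadjusted p (1855 of the 15075 genes tested) and 3 by the ratio alone (3193 of the 15075). Other listed genes called numbered 0 of 80, against 7 of 112 with no filter, 6 with DESeq2 and 0 to 13 with a library left out. They numbered 12 of 80 with the same ratio and an unadjusted p, and 27 of 80 by the ratio alone. The replicate block (same-numbered libraries paired) turned the log2 fold change of MSN to -0.0097 and changed no call of a member or listed gene. With the block the SE fell from 0.58 to 0.21 for CDHR2 (log2 fold change 0.49) and from 0.39 to 0.20 for USH1C (0.20). The SE also fell for VIL1, ESPN and MYO1A, and it rose for EZR, MSN, RDX, PLS1 and CDHR5. With no filter PLS1 was at -0.0066. With the FPKM column, MSN was at -0.33, RDX at -0.071, PLS1 at -0.20, CDHR5 at -0.12 and USH1C at -0.20. With a library left out, the log2 fold change ranged from -0.0011 to 0.28 for EZR, -0.15 to 0.32 for MSN, -0.00033 to 0.13 for RDX, -0.12 to 0.23 for PLS1, -0.027 to 0.63 for CDHR5, -0.19 to 0.074 for MYO1C, -0.49 to 0.0090 for ACTN4, -0.24 to 0.66 for TFF3 and -0.63 to 0.071 for SERPINA1. At 14999307 to 16501085 counts per library, MYO1A had few counts, and with 3 libraries a group the member intervals span several-fold differences for CDHR2 and MYO1A.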
